A study of Mus musculus with 12 samples.

Results

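Txnip, Arrdc4, Mlxip and Mlx form the glucose-sensing arm that runs through the transcription factor MondoA, and they were chosen by gene symbol. All 4 were found among the 15113 genes of the count table, and all 4 were among the 12730 genes with enough counts to test. RNA came from C2C12, a line of mouse myoblasts whose cells fuse to form myotubes in low serum. Cells were grown in high-glucose medium, switched to horse serum and differentiated into myotubes, then exposed for 16 h to 20 µM BAM15, a mitochondrial protonophore uncoupler, dissolved in DMSO, or to the DMSO vehicle. Both conditions therefore share 1 cell line, the culture medium and the solvent. Each condition had 6 libraries numbered 1 to 6, and the labels do not say whether these were separate cultures, so p-values measure the spread between these libraries, which may be technical.

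MondoA, the product of Mlxip, pairs with Mlx and resides largely in the cytoplasm, in part at the outer mitochondrial membrane. When glucose enters the cell and glucose 6-phosphate accumulates, the pair moves to the nucleus and binds carbohydrate-response elements, which are pairs of E-box-like motifs in the promoters of target genes. Txnip and Arrdc4 are the best known of these targets in muscle cells, and both encode alpha-arrestins that restrain glucose uptake, so that the pathway works as a feedback loop. Txnip also binds thioredoxin, from which it takes its name.

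The promoters of 3 members are shown because they hold at least 1 of the E-box-like motifs named below. They come from RefSeq on GRCm38.p6, each from 250 bases before the gene's start to 50 after it, and promoters of all 4 members were found. Capitals mark CACGTG, the canonical E-box, or CACGAG, a 1-base variant of it, and both strands were searched.

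Txnip promoter, chr3:96557865-96557894, plus strand: aactgtgCACGAGggctgCACGAGcctcca
Arrdc4 promoter, chr7:68749414-68749443, minus strand: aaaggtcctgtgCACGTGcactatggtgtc
Mlx promoter, chr11:101087238-101087267, plus strand: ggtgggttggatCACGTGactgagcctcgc

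In Txnip the 2 CACGAG motifs began at -85 and -74 relative to the start and stood 5 bases apart. They made 1 match of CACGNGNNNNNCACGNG, a pattern for 1 form of such a pair of motifs. This pattern was found in 16 of 32851 mouse promoters of the same length (0.0487%). It had no match in the windows of the other members, the target Arrdc4 among them. The share is therefore that of this pattern and not of carbohydrate-response elements at large. The Arrdc4 promoter held 1 CACGTG at -193 and the Mlx promoter 1 at -40, a motif found in 7.15% of promoters, whereas CACGAG was found in 6.47%. Neither motif lay in the window of Mlxip. CCAAT boxes, which overlap neither motif, numbered 6 in the Arrdc4 window and 2 in each of the other 3 windows, and 37.4% of promoters held at least 1. A match describes the letters in these windows and not binding.

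Libraries were prepared with QuantSeq, which reads the 3′ end of polyadenylated transcripts, so the members' levels are set beside each other without a length correction. Whether different genes gave like numbers of reads per molecule was not tested. Reads counted per library ranged from 13983725 to 18866728. Levels below are TMM-normalized counts, the counts scaled to a common library size. BAM15 libraries 4 to 6 stood apart from BAM15 libraries 1 to 3, and the labels name no batch for these numbers, so results are given for all 12 libraries, and for the members and some of the genes around them also within each range of numbers. These ranges were taken from an earlier account of the same data. P-values for differences between them are therefore not those of a split fixed in advance. The share of counts from mitochondrially encoded genes was 4.89 to 6.47% in BAM15 libraries 1 to 3, 4.29 to 5.55% in BAM15 libraries 4 to 6 and 2.85 to 4.71% in vehicle libraries. The TMM scaling factors were 0.932 to 0.960, 0.980 to 1.04 and 1.01 to 1.04 in the same order. All 8 myotube markers were tested, of which 2 rose (Myog and Acta1) and 2 fell (Ckm and Mb) at the threshold given below, and their summed level was 260813 to 333894 normalized counts in BAM15 libraries and 245986 to 264902 in vehicle libraries. Of the 5 markers of undifferentiated or cycling myoblasts, 1 rose (Myf5) and 4 fell (Pax7, Mki67, Top2a and Ccnb1), with a summed level of 2028 to 2250 in BAM15 libraries and 4140 to 4990 in vehicle libraries, and none of the markers was at 0 in any library. Acta1 was the largest part of the myotube sum, with means of 127952 in vehicle and 175768 in BAM15. Top2a was the largest part of the myoblast sum, with means of 3241 and 1175. The sums therefore do not describe all markers alike. The part of these markers, of the mitochondrial share and of the scaling factors in the members' values was not tested.

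To determine whether BAM15 altered the pathway's own transcripts, a quasi-likelihood model was fitted with edgeR, and p-values were adjusted over all tested genes after Benjamini and Hochberg. A gene was said to rise or fall at an adjusted p below 0.01, a threshold that 42.3% of tested genes passed (22% higher and 20.3% lower), with a median log2 fold change over all tested genes of 0.02. Of the 4 members, Mlxip rose and the other 3 did not pass. The additional thresholds of the study's methods, a base mean above 50 and a change of more than 2-fold, were met by 7.28% of tested genes (3.7% higher and 3.58% lower) and by none of the members: Mlxip, which passed the test, changed by less than 2-fold. In bulk RNA, fewer cells of a type and less RNA per cell cannot be told apart.

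Mlxip (ENSMUSG00000038342, chr5:123394798-123457932, plus strand, 17 exons) encodes the glucose-sensing partner of the pair. Its normalized counts ranged from 73.2 to 121 in vehicle libraries and from 124 to 192 in BAM15 libraries, with a BAM15 median of 153. All 6 BAM15 libraries lay above all 6 vehicle libraries, and 34.2% of tested genes showed no overlap between conditions. The mean rose from 99.8 ± 17.6 (SD, n = 6) to 152 ± 25.4 (SD, n = 6), a 1.52-fold increase (log2 fold change 0.60, SE 0.14, 95% interval 0.31 to 0.90, adjusted p = 0.00174). Within library numbers 1 to 3 the log2 fold change was 0.46 (SE 0.14, adjusted p = 0.0107), which missed the threshold, and within numbers 4 to 6 it was 0.72 (SE 0.19, adjusted p = 0.00667). The difference between these effects was 0.26 (SE 0.24, adjusted p = 0.513).

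Mlx (ENSMUSG00000017801, chr11:101087277-101092207, plus strand, 8 exons) encodes the obligate partner through which MondoA binds DNA. Its normalized counts were 345, 419 and 447 in vehicle libraries (lowest, median, highest) and 382, 411 and 499 in BAM15 libraries. The ranges of the conditions overlapped. Means were 412 ± 38.1 (SD, n = 6) in vehicle and 427 ± 46.0 (SD, n = 6) in BAM15, and the log2 fold change of 0.05 (SE 0.08, 95% interval -0.13 to 0.23, adjusted p = 0.638) did not pass the test. Of the last 400 bases of the Mlx transcript, where 3′ reads fall, 385 overlap exons of Psmc3ip on the opposite strand, and 95.7% of the 351 windows of 50 bases in this stretch are shared with it. Whether counting used the strand is not given in the sources used here, so reads of these genes may not be separated and the level of Mlx is uncertain. Psmc3ip itself had 55.2 ± 7.70 normalized counts in vehicle and 49.0 ± 13.4 in BAM15 (SD, n = 6 each). The last 400 bases of the other 3 members shared no such window with another gene and overlapped no other gene's exons.

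Because a ratio of counts within 1 library does not depend on how libraries are scaled, Mlxip was also set against Mlx library by library, with 0.5 added to each count. The log2 ratio was -2.05 ± 0.24 in vehicle and -1.497 ± 0.26 in BAM15 libraries (SD, n = 6 each), or 0.241 and 0.354 Mlxip reads per Mlx read. The difference of 0.56 passed the 0.05 threshold set for ratios (exact two-sided permutation test, p = 0.0108, adjusted over 2 ratios 0.0216, where 0.00216 is the smallest p the design allows). Vehicle libraries spanned -2.28 to -1.73 and BAM15 libraries -1.87 to -1.23, so the conditions overlapped. The difference was 0.50 within numbers 1 to 3 and 0.61 within numbers 4 to 6, where 3 against 3 libraries cannot reach an exact p below 0.1. The overlap of Mlx with Psmc3ip bears on this ratio as well.

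**Figure D1:**
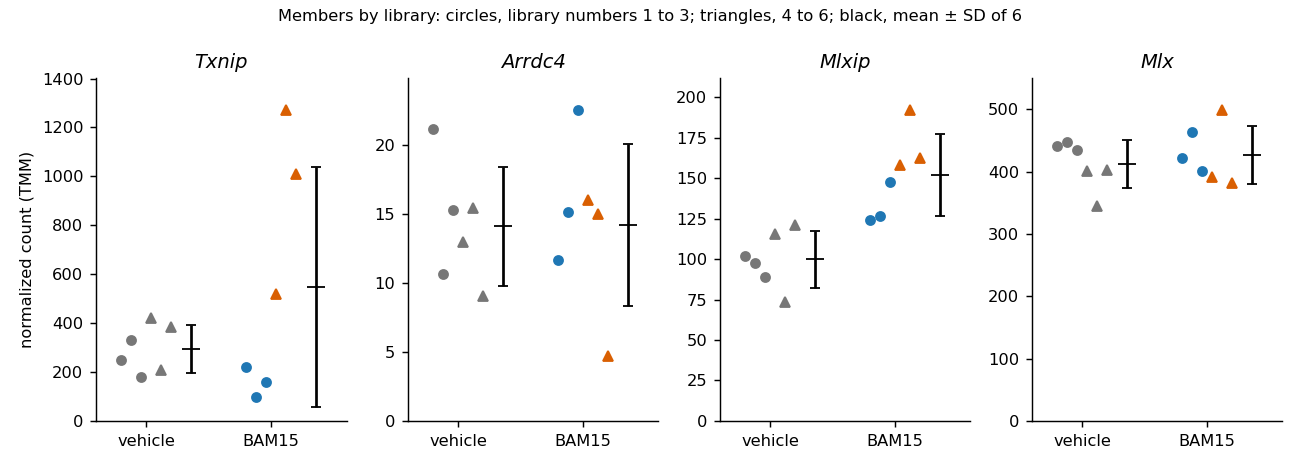
Normalized counts (TMM, vertical axes from 0, a separate scale for each gene) of Txnip, Arrdc4, Mlxip and Mlx in each vehicle and BAM15 library. Circles are library numbers 1 to 3, triangles numbers 4 to 6, and black marks the mean ± SD of 6. Mlxip is higher in all 6 BAM15 libraries than in any vehicle library, whereas the BAM15 libraries of Txnip lie on both sides of the vehicle range.

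Txnip (ENSMUSG00000038393, chr3:96557957-96561883, plus strand, 8 exons) encodes the alpha-arrestin that promotes internalization of glucose transporters. Its normalized counts were 180, 289.6 and 422 in vehicle libraries (lowest, median, highest) and 99.4, 369 and 1273 in BAM15 libraries. The BAM15 libraries numbered 1, 2 and 3 had 218, 99.4 and 161 normalized counts, and those numbered 4, 5 and 6 had 520.1, 1273 and 1008.5. Libraries 2 and 3 were thus below every vehicle library, libraries 4 to 6 were above every vehicle library, and library 1 fell inside the vehicle range.

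The mean of Txnip was 295 ± 98.8 (SD, n = 6) in vehicle and 547 ± 490 (SD, n = 6) in BAM15. The log2 fold change of 0.89 (SE 0.57, 95% interval -0.34 to 2.12, adjusted p = 0.206) did not pass the test, and without BAM15 library 5 it was 0.44 (adjusted p = 0.532). On the log2 scale the SD among BAM15 libraries was 1.49, against a median of 0.22 over all 12730 tested genes. Among the 10470 genes with a base mean above 50, Txnip ranked 20th by this SD. In vehicle libraries the SD of Txnip was 0.50, against a median of 0.14 over all tested genes.

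When Txnip was compared within library numbers 1 to 3, its mean was 253 ± 76.3 in vehicle and 160 ± 59.5 in BAM15 (SD, n = 3 each), a log2 fold change of -0.65 (SE 0.35, 95% interval -1.55 to 0.24, adjusted p = 0.177). Within numbers 4 to 6 the mean was 337 ± 115 in vehicle and 934 ± 382 in BAM15 (SD, n = 3 each), a log2 fold change of 1.46 (SE 0.44, 95% interval 0.33 to 2.59, adjusted p = 0.0448). Neither passed at 0.01, a threshold met by 44.4% of the genes tested within numbers 1 to 3 and by 33.2% within numbers 4 to 6. When the 3 BAM15 libraries of a range were set against all 6 vehicle libraries, a comparison added after the data were seen, the log2 fold change was -0.87 for numbers 1 to 3 (adjusted p = 0.0704) and 1.67 for numbers 4 to 6 (adjusted p = 0.00362). The direction of the Txnip difference therefore turned with the libraries used.

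The difference between the BAM15 effects of the number ranges was 2.12 on the log2 scale for Txnip (SE 0.62), or 4.35-fold, and its adjusted p of 0.0862 missed the threshold of 0.05 set for this comparison. Txnip ranked 44th by the size of this difference but 1189th by its p-value among 12730 genes. Of these genes 339 (2.66%) passed, 273 of them (2.14%) with the larger effect in numbers 4 to 6. Without BAM15 library 4 the difference for Txnip was 2.41 (adjusted p = 0.0190), and without robust moderation the adjusted p was 0.0332. The number of genes that passed rested on single libraries: without BAM15 library 4 it was 2532, without vehicle library 3 it was 340, and without any 1 of the other 10 libraries it was 0 by edgeR, where 2290 to 3095 genes had an unadjusted p below 0.05. Of 12632 genes, 2 (0.0158%), Nudt9 and Fkbp2, passed at 0.01 within both ranges with opposite signs.

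**Figure D2:**
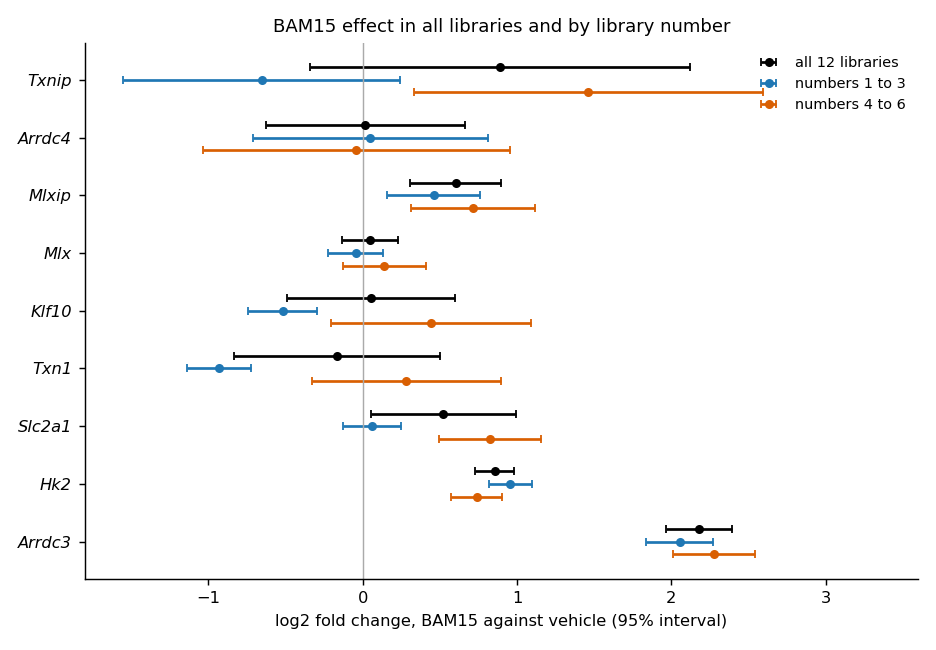
Log2 fold change of BAM15 against vehicle with its 95% interval (horizontal axis) for the 4 members and 5 genes around them, in all 12 libraries (black), library numbers 1 to 3 (blue) and numbers 4 to 6 (orange). Txnip, Klf10, Txn1 and Mlx are below 0 in numbers 1 to 3 and above 0 in numbers 4 to 6. For each of these genes the interval of at least 1 of the ranges spans 0. Hk2 and Arrdc3 are above 0 in both ranges.

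Arrdc4 (ENSMUSG00000042659, chr7:68736995-68749241, minus strand, 8 exons), which encodes an alpha-arrestin closely related to Txnip, was the least abundant member. Its normalized counts were 9.04, 14.1 and 21.1 in vehicle libraries (lowest, median, highest) and 4.67, 15.1 and 22.6 in BAM15 libraries. The vehicle range lay inside the BAM15 range, with means of 14.1 ± 4.28 and 14.2 ± 5.87 (SD, n = 6 each). The log2 fold change was 0.02 (SE 0.30, 95% interval -0.62 to 0.66, adjusted p = 0.965), 0.05 within numbers 1 to 3 (adjusted p = 0.917) and -0.04 within numbers 4 to 6 (adjusted p = 0.951). Raw counts were 4 to 24 per library, and changes inside this interval remain possible. The smallest change that would have passed the threshold was not determined. The lowest Arrdc4 value came from BAM15 library 6, which held 1008.5 normalized counts of Txnip.

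The 2 target genes were set against each other in the same way as Mlxip and Mlx. The log2 ratio of Txnip to Arrdc4 was 4.32 ± 0.83 in vehicle and 4.76 ± 1.95 in BAM15 libraries (SD, n = 6 each), a difference of 0.44 (exact two-sided permutation test, p = 0.63, adjusted 0.63). Its mean was 3.22 in BAM15 libraries 1 to 3 and 6.31 in BAM15 libraries 4 to 6, against 3.98 and 4.67 in the vehicle libraries of these numbers. Without BAM15 library 6 the difference was -0.12.

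**Figure D3:**
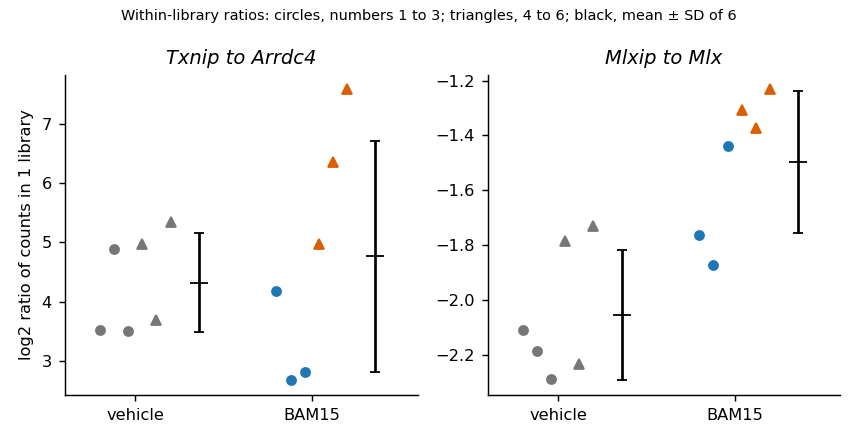
Log2 ratio of read counts within each library (vertical axes, log2 scale, not starting at 0) of Txnip to Arrdc4 and of Mlxip to Mlx, with 0.5 added to each count. Circles are library numbers 1 to 3, triangles numbers 4 to 6, and black marks the mean ± SD of 6. The Mlxip to Mlx ratio centres on -2.05 in vehicle and -1.497 in BAM15, and the Txnip to Arrdc4 ratio spans 2.67 to 7.59 in BAM15 libraries.

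In vehicle libraries the members ranked Mlx, Txnip, Mlxip and Arrdc4 by mean normalized count. The overlap of Mlx with Psmc3ip leaves the level of Mlx, and so its place in this order, uncertain. The ranges of Mlx (345 to 447) and Txnip (180 to 422) overlapped, whereas Txnip, Mlxip and Arrdc4 did not overlap with each other. In BAM15 libraries Txnip ranked first by mean, but its range of 99.4 to 1273 contained every Mlx library and every Mlxip library. Arrdc4 stayed below the other 3 members in both conditions.

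The profile of each member over the 12 libraries was compared with those of all genes with a base mean above 50, by the root mean square difference of log2 normalized counts after each gene was centred on its vehicle mean. This is a description without a test, and libraries of a condition share their treatment. Unc50 (0.19), Gng5 (0.20), a G protein gamma subunit, and Syvn1 (0.23), a ubiquitin ligase of endoplasmic reticulum-associated degradation, came closest to Txnip, and 70 of 10469 genes lay within 0.5. Unc50 was at -0.52, -1.57 and -0.59 in BAM15 libraries 1, 2 and 3 and at 1.22, 2.35 and 1.74 in BAM15 libraries 4, 5 and 6, where Txnip was at -0.36, -1.49 and -0.80 and at 0.89, 2.18 and 1.84. All 3 of these genes were lowest in BAM15 library 2 and highest in BAM15 library 5, as Txnip was.

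The genes nearest to Mlxip were Fzd5 (0.10), a Wnt receptor, Cdc42se2 (0.12), an effector of Cdc42, and Kdm1b (0.12), a histone demethylase, and their log2 fold changes in all libraries lay between 0.60 and 0.67. Ncbp3 (0.07), Ube2b (0.08) and Gnas (0.08) were nearest to Mlx. For the weakly expressed Arrdc4 no gene came closer than 0.37 (Pms1). Txnip and Arrdc4 differed from each other by 1.41 and Mlxip from Mlx by 0.45.

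**Figure D4:**
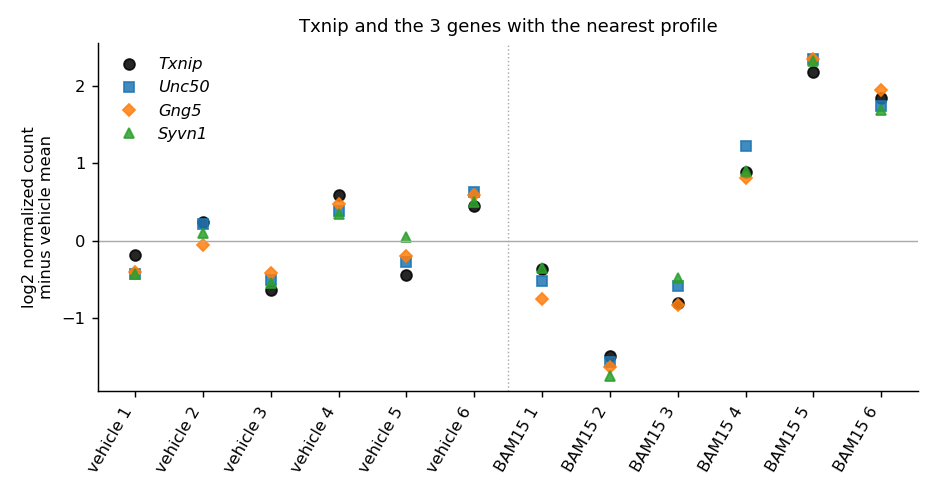
Log2 normalized count minus the gene's vehicle mean (vertical axis) in each of the 12 libraries for Txnip, Unc50, Gng5 and Syvn1, which were chosen for the likeness of their profiles. All 4 genes are lowest in BAM15 library 2, where Txnip is at -1.49, and highest in BAM15 library 5, where it is at 2.18.

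Next, the other alpha-arrestins were examined. Of the 4 on the list, 3 were tested and 1 rose, and their median log2 fold change was 1.19. Over all tested genes, 22% rose. Arrdc3, which promotes ubiquitination and turnover of membrane receptors such as the beta-adrenergic receptors, had 120.2, 134 and 148 normalized counts in vehicle libraries (lowest, median, highest) and 515, 586 and 759 in BAM15 libraries. Every BAM15 library lay above every vehicle library, where 34.2% of tested genes showed no overlap between conditions (17.1% with BAM15 higher). The mean of Arrdc3 increased from 135 ± 11.02 to 610.2 ± 88.1 (SD, n = 6 each), a 4.53-fold rise (log2 fold change 2.18, SE 0.10, adjusted p = 1.13e-10). Within numbers 1 to 3 its log2 fold change was 2.05 and within numbers 4 to 6 it was 2.27.

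Arrdc1 and Arrdc2 were described after their values were seen. For Arrdc1, which takes part in the release of vesicles from the plasma membrane, the log2 fold change was 0.24 (SE 0.15, adjusted p = 0.189). Arrdc2 had 19.8 ± 6.42 normalized counts in vehicle and 45.1 ± 29.2 in BAM15 (SD, n = 6 each), a log2 fold change of 1.19 that missed the threshold (adjusted p = 0.0246). It was below every vehicle library in BAM15 library 2 (10.8) and above every vehicle library in the other 5 (27.3 to 92.9). Without BAM15 library 2 its log2 fold change was 1.39 and passed (adjusted p = 0.00232). Arrdc5 was not analysed here.

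Mlx also pairs with Mxd1, Mxd4 and Mnt, which repress E-box genes, and with Mlxipl (ChREBP), which was not analysed here. All 3 repressors passed, 1 higher and 2 lower, where 42.3% of all tested genes passed. Mxd1 had 528, 554 and 645 normalized counts in vehicle libraries (lowest, median, highest) and 169, 192 and 243 in BAM15 libraries, and it fell to 0.345 of its vehicle level (log2 fold change -1.54, SE 0.09, adjusted p = 2.44e-09). Mxd4 fell from 2563 ± 62.6 to 1571 ± 194 (SD, n = 6 each, log2 fold change -0.71, adjusted p = 1.15e-06). Mnt rose from 278 ± 21.1 to 604 ± 109 (SD, n = 6 each), or 2.18-fold (log2 fold change 1.12, SE 0.11, adjusted p = 3.66e-07). For each of these genes the conditions did not overlap, as for 34.2% of tested genes, and the direction was the same within both ranges of library numbers.

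Of 21 genes known to carry carbohydrate-response elements or to follow glucose through MondoA or ChREBP, 16 were tested. Of these, 3 rose, 5 fell and 8 did not pass, where 22% of all tested genes rose and 20.3% fell. The median log2 fold change of the 16 genes was -0.04. Among those that rose, Fgf21, a stress-responsive hormone, had 4.78, 9.63 and 19.9 normalized counts in vehicle libraries (lowest, median, highest) and 44.3, 113 and 505 in BAM15 libraries. Its log2 fold change was 3.99 (SE 0.69, adjusted p = 0.000346), or 15.9-fold, and 3.26 without BAM15 library 5 (adjusted p = 4.16e-05). Fgf21 was 7.66-fold higher within numbers 1 to 3 (adjusted p = 4.02e-07) and 20.8-fold higher within numbers 4 to 6 (adjusted p = 0.00735), and the difference between these effects did not pass (adjusted p = 0.464). Hk2, the hexokinase that makes glucose 6-phosphate in muscle, rose 1.81-fold from 2155 ± 168 to 3898 ± 189 (SD, n = 6 each, adjusted p = 1.34e-08). G6pdx, which takes glucose 6-phosphate into the pentose phosphate pathway, rose 1.61-fold (adjusted p = 6.11e-07).

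Of the genes of this list that fell, Ldha, a lactate dehydrogenase subunit, fell from 5274 ± 277 to 2619 ± 528 (SD, n = 6 each, log2 fold change -1.01, adjusted p = 1.38e-06). Fasn, the fatty acid synthase, fell by 0.83 on the log2 scale (adjusted p = 1.55e-05), a call that was lost within numbers 1 to 3 (log2 fold change -0.64, adjusted p = 0.0252). Acly, which makes cytosolic acetyl-CoA, fell by 0.81 (adjusted p = 9.55e-09). Scd1, the stearoyl-CoA desaturase, fell by 0.48 (adjusted p = 8.61e-06). Gpd1, the cytosolic glycerol 3-phosphate dehydrogenase, fell by 0.59 (adjusted p = 0.00918), a call that was lost when any 1 library other than BAM15 library 6 or vehicle library 2 was left out (adjusted p = 0.0115 to 0.0255) and within numbers 1 to 3 and 4 to 6 (adjusted p = 0.0863 and 0.0190). The summed level of the genes of this list found in the count table, the untested Acacb among them, was 20302 to 23137 normalized counts in vehicle libraries, 17153 to 17647 in BAM15 libraries 1 to 3 and 17696 to 19348 in BAM15 libraries 4 to 6.

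Klf10, a transcriptional repressor and MondoA target that was picked out after its values were seen, did not pass over all libraries. BAM15 libraries 1, 2 and 3 held 301, 242 and 273 normalized counts, below the vehicle range of 326 to 455, and BAM15 libraries 4, 5 and 6 held 389, 778 and 490.2, of which libraries 5 and 6 were above that range and library 4 lay inside it. Its log2 fold change was 0.06 in all libraries (SE 0.25, adjusted p = 0.869), -0.52 within numbers 1 to 3 (adjusted p = 0.000421) and 0.44 within numbers 4 to 6 (adjusted p = 0.221). The difference between these effects, 0.97 (adjusted p = 0.0988), missed the threshold of 0.05. Acacb was removed by the count filter, and the other untested genes of this list were not analysed here.

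Glucose 6-phosphate is the metabolite that MondoA responds to, and of 16 genes for glucose entry and for making or using it, 13 were tested, of which 5 rose, 2 fell and 6 did not pass, with a median log2 fold change of 0.26. Among all tested genes, 22% rose and 20.3% fell. Hk2 and G6pdx are also on the preceding list. Slc2a4, which encodes the insulin-responsive transporter GLUT4, had 12.7, 27.6 and 44.0 normalized counts in vehicle libraries (lowest, median, highest) and 47.9, 55.1 and 68.6 in BAM15 libraries, without overlap, as for 34.2% of tested genes. It rose 2.09-fold (log2 fold change 1.06, SE 0.24, adjusted p = 0.0017). Adpgk, the ADP-dependent glucokinase, rose 2.75-fold (log2 fold change 1.46, SE 0.31, adjusted p = 0.00137), with 0.77 within numbers 1 to 3 and 1.90 within numbers 4 to 6. G6pc3, the ubiquitous glucose 6-phosphatase subunit, rose 1.32-fold (adjusted p = 0.000192). Hk1, the constitutive hexokinase, fell by 0.44 (adjusted p = 0.00121) and Pgm1, a phosphoglucomutase, fell by 0.48 on the log2 scale (adjusted p = 0.000167).

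Slc2a1, which encodes the basal transporter GLUT1, whose internalization Txnip promotes, had 745, 581 and 721 normalized counts in BAM15 libraries 1, 2 and 3 and 999, 1561 and 1391 in BAM15 libraries 4, 5 and 6, against 619 to 781 in vehicle. BAM15 libraries 4 to 6 were above the vehicle range, library 2 was below it and libraries 1 and 3 lay inside it. Its log2 fold change of 0.52 (SE 0.22, adjusted p = 0.0573) did not pass over all libraries. It was 0.06 within numbers 1 to 3 (adjusted p = 0.572) and 0.83 within numbers 4 to 6 (adjusted p = 0.00107). The difference between these effects, 0.77 on the log2 scale (adjusted p = 0.0490), passed the 0.05 threshold in a split that was itself taken from these data. The call was lost when any 1 library other than BAM15 library 4 was left out (adjusted p = 0.0599 to 0.127).

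**Figure D5:**
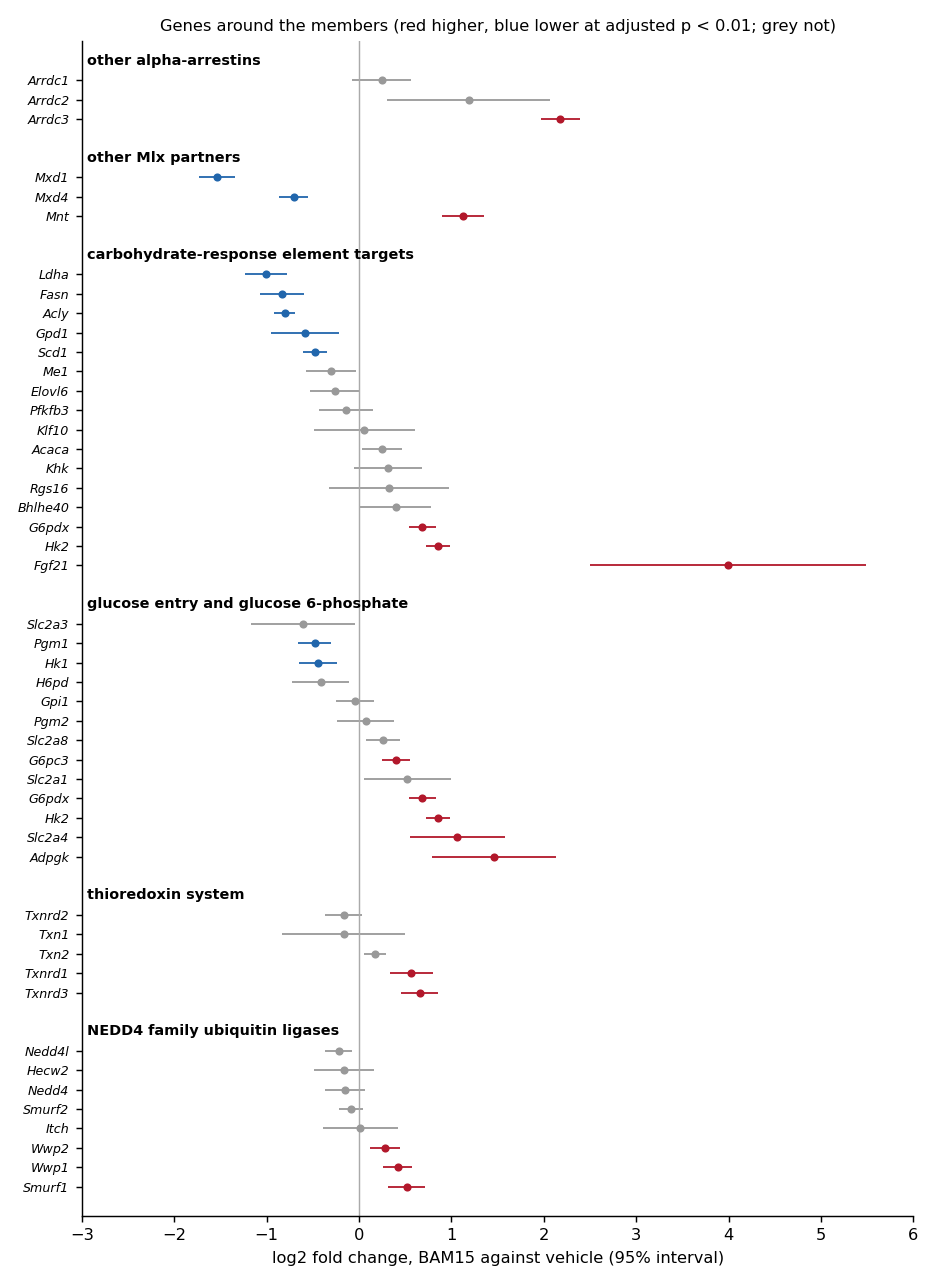
Log2 fold change of BAM15 against vehicle with its 95% interval (horizontal axis) for the tested genes of the 6 lists around the members. Red genes were higher and blue genes lower at an adjusted p below 0.01, and grey genes did not pass. Fgf21 (3.99) and Arrdc3 (2.18) lie farthest to the right and Mxd1 (-1.54) farthest to the left.

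Of the 5 genes of the thioredoxin system, which Txnip restrains, 2 rose and 3 did not pass, with a median log2 fold change of 0.17, where 22% of all tested genes rose. Txnrd1, the cytosolic thioredoxin reductase, had 1481, 1689.8 and 1952 normalized counts in vehicle libraries (lowest, median, highest) and 1960.3, 2683 and 2961 in BAM15 libraries, and rose 1.48-fold (log2 fold change 0.56, SE 0.11, adjusted p = 0.000441). Txnrd3, a reductase first described in testis, rose 1.57-fold (adjusted p = 2.66e-05). Txn1, the thioredoxin that Txnip binds, did not pass over all libraries. BAM15 libraries 1, 2 and 3 held 2237, 1736 and 2002 normalized counts, below the vehicle range of 3447 to 4746, and BAM15 libraries 4, 5 and 6 held 3654, 6919 and 4768, of which libraries 5 and 6 were above that range and library 4 lay inside it. The log2 fold change of Txn1 was -0.17 in all libraries (adjusted p = 0.673), -0.93 within numbers 1 to 3 (adjusted p = 4.71e-06) and 0.28 within numbers 4 to 6 (adjusted p = 0.394), and the difference between these effects, 1.22 (adjusted p = 0.0597), missed the threshold of 0.05.

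Alpha-arrestins act as adaptors for ubiquitin ligases of the NEDD4 family, and of the 9 on the list 8 were tested, of which 3 rose and 5 did not pass. The median log2 fold change was -0.04, and 22% of all tested genes rose. Smurf1 rose 1.43-fold from 706 ± 48.0 to 1009.6 ± 155 normalized counts (SD, n = 6 each, adjusted p = 0.000254) and Wwp1 rose 1.33-fold from 658 ± 42.9 to 879 ± 88.9 (SD, n = 6 each, adjusted p = 0.000226). Wwp2 rose 1.22-fold (adjusted p = 0.00685), a call that was lost when any 1 of BAM15 libraries 1 to 3 or of vehicle libraries 1, 2, 4 and 6 was left out (adjusted p = 0.0148 to 0.0178). Its log2 fold change was 0.42 within numbers 1 to 3 (adjusted p = 9.49e-05) and 0.11 within numbers 4 to 6, where the call was lost (adjusted p = 0.353), as it was with scaling by library size only (adjusted p = 0.0157) and by the upper quartile (adjusted p = 0.0102). Hecw1 was not analysed here.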

How the data were processed

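RNA of C2C12 myotubes was sequenced from 6 libraries per condition (20 µM BAM15 or vehicle, 16 h). The authors prepared QuantSeq 3′ libraries, aligned them with BlueBee software and deposited whole-number read counts per Ensembl gene without normalization. The authors also deposited normalized signal, made with DESeq2 1.22.2 per the submitters' processing notes; within each library the ratio of the counts to this signal was constant (0.836 to 1.07), and the table supplied gene symbols only. The count table held 11 further columns, which were not used. The labels and the methods differ in read length and passage number, and the strand setting of the counting is not given in the sources used here.

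The filter filterByExpr removed 2383 genes, TMM factors were 0.932 to 1.04, and edgeR 4.0.16 in R 4.3.3 fitted a robust quasi-likelihood model with condition as its only term, with Benjamini-Hochberg adjustment over 12730 genes. Standard errors are the log2 fold change divided by the square root of F. Differences between library numbers were tested as an interaction, over ranges taken from an earlier account of these data. No 2 libraries of a condition agreed within sampling noise (chi-square per gene of 4.72 to 78.4). Positions are from GENCODE on GRCm38 and promoters from RefSeq on GRCm38.p6. Scripts were tested on simulated data.

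The members and lists were chosen with earlier results of these data known. Genes are named by a rule: the members, up to 5 genes per list with the largest change among those that passed with a base mean above 50, 7 genes of the pathway whether or not they passed (Mlxipl, Arrdc3, Txn1, Txnrd1, Hk2, Slc2a1 and Slc2a4) and the 3 nearest profiles per member. Klf10, Arrdc1, Arrdc2, Scd1, Gpd1 and G6pc3 were named after their values were seen. Alternatives were DESeq2 1.42.0, limma-voom (limma 3.58.1), other scalings and filters, blocks for library numbers, no robust moderation, subsets of libraries and, for ratios, a pseudocount of 5 in place of 0.5.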

Additional observations from a re-analysis of the deposited data

Results flagged for a closer look

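In 4 of 62 sets of 6 libraries, 1 library stood far from the other 5, and chance alone does so in about 1 of 20 such sets. Mnt was 319.3 normalized counts in vehicle library 4, where the other 5 vehicle libraries held 261.9 to 276.6. Mxd4 was 2447 in vehicle library 4 and 2554 to 2616 in the others. Txnrd3 was 461.6 in vehicle library 2 and 351.6 to 388.7 in the others, and G6pc3 was 672.2 in vehicle library 2 and 763.4 to 809 in the others. None of the 4 members had such a library in either condition.

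The BAM15 effect on Slc2a1 differed between library numbers 4 to 6 and 1 to 3, a split taken from these data, by 0.7687 on the log2 scale (edgeR, adjusted p = 0.04904). All 3 BAM15 libraries numbered 4 to 6 were above every vehicle library. This call was lost with DESeq2 size factors (adjusted p = 0.0504), without a filter on low counts (adjusted p = 0.0548) and without any 1 library other than BAM15 library 4, where adjusted p was 0.0599 to 0.127.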

How the results depend on the processing

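At an adjusted p below 0.01, 4265 to 6372 genes passed under the alternatives, and 903 to 1114 passed all 3 thresholds. Mlxip kept its direction in all of them. It missed the threshold within library numbers 1 to 3 (0.46) and when BAM15 libraries 1 to 3 were set against all vehicle libraries (0.41, adjusted p = 0.0198), an alternative that, like that with libraries 4 to 6, was chosen after seeing the data; over all alternatives its adjusted p was 0.000159 to 0.0198. Txnip turned to -0.65 and -0.87 in the same comparisons and passed at 1.67 with BAM15 libraries 4 to 6 against all vehicle libraries (adjusted p 0.00362 to 0.597 over all alternatives). The log2 fold changes of Arrdc4 and Mlx lay near 0 and changed sign: Arrdc4 with limma-voom (-0.047), library size only (-0.048), the upper quartile (-0.0024), numbers 4 to 6 (-0.040), BAM15 libraries 4 to 6 against all vehicle libraries (-0.22) and with libraries left out (-0.16 to 0.18), and Mlx with library size only (-0.0088) and numbers 1 to 3 (-0.045). At least 10 counts in every library left Arrdc4 out.

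Over library numbers, the 339 genes whose effects differed became 763 with library size only, 594 without robust moderation and 0 to 2532 with libraries left out. The difference for Arrdc4 turned to 0.0038 with library size only and was -0.37 to 0.27 with libraries left out. Passing alpha-arrestins became 2 with DESeq2, with a block for both number ranges, within numbers 4 to 6 and with BAM15 libraries 4 to 6 against all vehicle libraries, and were 1 to 2 with libraries left out. Passing thioredoxin genes became 4 within numbers 1 to 3 and with BAM15 libraries 1 to 3 against all vehicle libraries, where passing NEDD4 ligases became 5. The Txnip to Arrdc4 difference turned to -0.76 within numbers 1 to 3 and was -0.12 to 0.86 with libraries left out. The Mlxip to Mlx difference missed its threshold within numbers 1 to 3 (0.50) and 4 to 6 (0.61).

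Among named genes, Klf10 turned negative with limma-voom (-0.056), a block for both number ranges (-0.018), numbers 1 to 3 (-0.52), BAM15 libraries 1 to 3 against all vehicle libraries (-0.54) and with libraries left out (-0.23 to 0.17). Within numbers 1 to 3 and with BAM15 libraries 1 to 3 against all vehicle libraries, Unc50 was -0.60 and -0.87, Gng5 -0.73 and -1.07, and Syvn1 -0.46 and -0.77. Slc2a1 was -0.025 in the second of these subsets. Txn1 turned to 0.28 within numbers 4 to 6 and 0.36 with BAM15 libraries 4 to 6 against all vehicle libraries. The cause of these changes was not tested.

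Same-numbered libraries correlated at -0.10 to 0.52 in their deviations from the condition means, 4 of 6 over 0.1. The best vehicle match was library 3 for each of BAM15 libraries 1 to 3 and library 6 for each of BAM15 libraries 4 to 6. The own number was the best match in 2 of 6, so the numbers were not taken to pair single libraries. With a replicate block the count of alpha-arrestins was 2, since Arrdc2 passed (adjusted p = 0.00351), Wwp2 and Gpd1 missed the threshold (adjusted p = 0.0114 and 0.0157), and Arrdc4 turned to -0.019 and Klf10 to -0.053. The Mlxip to Mlx difference stayed at 0.56 with an exact p of 0.03125, adjusted 0.0625. All 6 same-numbered differences were positive, and 0.03125 is the smallest p that changing the signs of 6 differences allows.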
